A study of Mus musculus with 2 samples.

Results

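Pro-B and pre-B cells are the precursors of B lymphocytes that normally arise in bone marrow. They were picked out of callus, the repair tissue around a broken bone, by the RNA they held. A barcode, the tag that marks 1 droplet and usually 1 cell, was counted as a pro-B or pre-B cell under 4 conditions. It held at least 2 UMIs of Cd79a and Cd79b together, the signalling chains of the B cell receptor, where a UMI (unique molecular identifier) counts 1 captured RNA molecule. It held at least 2 UMIs of Vpreb1, Igll1, Dntt and Rag1 together, no UMI of the T cell genes Cd3d and Cd3e, and fewer than 100 UMIs of the cartilage collagen Col2a1 per 10000. Among barcodes with at least 200 genes and at most 20% mitochondrial UMIs, 102 of 13460 were pro-B or pre-B cells in library MGJ, a share of 0.758% (95% interval 0.618 to 0.919). In library MGJ2 they were 243 of 7806, a share of 3.11% (2.74 to 3.52). Both libraries together gave 345 of 21266 barcodes.

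Both libraries came from 12-week-old male wild-type C57BL/6J mice with a femoral fracture, and no gene was altered and no compound given in the samples used here. Callus was taken at 10 days after fracture from 5 mice and at 20 days from 5 mice, digested to single cells and profiled with 10x Genomics 3′ chemistry. Neither label says on which day its callus was taken, and single mice could not be told apart within a library. The libraries are therefore reported side by side, with no comparison between them, no test and no p-value, and intervals cover counting error only.

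B lineage precursors assemble the immunoglobulin heavy chain gene first. Rag1 and Rag2 form the recombinase that cuts the V, D and J segments, and Dntt, terminal deoxynucleotidyl transferase, adds untemplated bases at the heavy chain joints in pro-B cells. Vpreb1 or Vpreb2 with Igll1 forms the surrogate light chain, which pairs with the new heavy chain in the pre-B-cell receptor before a kappa or lambda light chain exists. Large pre-B cells that carry this receptor divide, then leave the cycle as small pre-B cells, silence the surrogate light chain and use Rag1 again to assemble the light chain genes. Mature B cells carry IgM and IgD and load MHC class II.

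The promoters of the 4 genes that chose the cells are shown because a factor of the pro-B program, E2A (Tcf3), binds DNA words of the E-box family. Each line gives the 250 bases before the RefSeq start site on GRCm38, 5′ to 3′ on the strand of the gene, and capitals mark CAGCTG or CAGGTG on either strand (CACCTG is CAGGTG read from the other strand). Igll1 (chr16:16863986-16864235) and Vpreb1 (chr16:16869256-16869505) are read from the minus strand, Rag1 (chr2:101649533-101649782) from the minus strand and Dntt (chr19:41029025-41029274) from the plus strand.
Igll1: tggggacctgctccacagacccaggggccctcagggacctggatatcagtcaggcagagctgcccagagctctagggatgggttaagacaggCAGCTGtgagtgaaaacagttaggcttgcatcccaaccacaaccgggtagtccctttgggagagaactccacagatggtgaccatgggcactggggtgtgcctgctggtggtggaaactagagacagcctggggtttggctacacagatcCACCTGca
Vpreb1: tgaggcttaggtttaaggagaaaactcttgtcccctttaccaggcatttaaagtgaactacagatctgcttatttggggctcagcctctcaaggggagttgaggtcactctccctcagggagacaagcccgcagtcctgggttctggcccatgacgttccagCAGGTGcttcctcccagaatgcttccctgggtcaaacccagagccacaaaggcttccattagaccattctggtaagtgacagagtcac
Rag1: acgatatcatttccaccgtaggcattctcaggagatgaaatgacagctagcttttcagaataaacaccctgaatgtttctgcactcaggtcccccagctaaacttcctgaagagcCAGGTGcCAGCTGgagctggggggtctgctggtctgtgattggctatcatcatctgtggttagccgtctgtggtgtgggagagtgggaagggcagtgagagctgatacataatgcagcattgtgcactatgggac
Dntt: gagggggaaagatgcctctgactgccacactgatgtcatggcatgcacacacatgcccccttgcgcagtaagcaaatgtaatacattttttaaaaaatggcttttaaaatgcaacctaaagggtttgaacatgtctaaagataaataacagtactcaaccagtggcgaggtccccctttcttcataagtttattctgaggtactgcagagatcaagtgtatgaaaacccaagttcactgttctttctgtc
The Igll1 window held 2 such words, Vpreb1 held 1, Rag1 held 2 and Dntt held 0. Of 32851 promoter windows of the same length, 27.7% held either word, 13.0% CAGCTG and 17.2% CAGGTG, so the words are common and mark no site by themselves.

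Igll1 and Vpreb1 lie 4417 bases apart on chromosome 16, and Rag1 and Rag2 lie 5752 bases apart on chromosome 2, in opposite orientation. Rag1 shares its strand and part of its span with the annotated transcript B230118H07Rik, and Igkc does so with Gm30211, so that reads of these pairs may be divided between them. The transcripts of Vpreb1 and Vpreb2 are 97.4% identical over their aligned bases and those of Iglc2 and Iglc3 are 94.5% identical, so the split between these copies is uncertain.

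Library MGJ held 14295 barcodes with 135304426 UMIs and library MGJ2 held 8009 barcodes with 61130834 UMIs. A pro-B or pre-B cell held a median of 2817.5 UMIs in library MGJ (673 to 42903) and 4172 UMIs in library MGJ2 (1320 to 44676), against 5761.5 and 5151 UMIs in all other barcodes. Doublets, droplets with 2 cells, were kept, and 3 of the 102 and 13 of the 243 cells were called doublets. The libraries shared 19 barcode sequences, none of them in a pro-B or pre-B cell.

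The values that chose the cells are given as a description. In library MGJ, Vpreb1 was detected in 60 of 102 cells, Igll1 in 62, Dntt in 38 and Rag1 in 71. In library MGJ2, Vpreb1 was detected in 107 of 243 cells, Igll1 in 104, Dntt in 81 and Rag1 in 211. The summed UMIs of the 4 genes had a median of 6 per cell in either library, with the highest cell at 45 and 120. Both chains of the surrogate light chain, Vpreb1 and Igll1, were found together in 56 and 101 cells, so the 2 genes were mostly seen in the same cells. A single gene of the 4 carried 41 cells (40.2%) in library MGJ and 133 cells (54.7%) in library MGJ2.

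At the edge of the rule, 25 cells of library MGJ and 36 of library MGJ2 had exactly 2 UMIs of the 4 genes, and 35 and 49 barcodes with the same Cd79a and Cd79b had 1 and were left out. Cells just inside and barcodes just outside held Vpreb3 at 2786 and 1162 CPM (UMIs per 1000000) for library MGJ and at 2099 and 1989 CPM for library MGJ2. Lef1 was at 77.9 CPM just inside and 45.5 CPM just outside for library MGJ, and at 143 and 118 CPM for library MGJ2. In mature B cells, which held none of the 4 genes, Vpreb3 was at 660 and 287 CPM and Lef1 at 9.97 and 12.5 CPM. Just outside the edge, both genes were thus above the mature level, though with overlapping intervals for Lef1 in library MGJ. They were below the level of cells with exactly 2 UMIs, but only Vpreb3 in library MGJ had intervals apart. Lef1 in library MGJ rested on 6 UMIs outside and 4 inside. Vpreb3 just outside the edge in library MGJ2 was above the 1596 CPM of cells with 3 or more UMIs.

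The label was checked against genes that did not choose the cells. Vpreb3, a chaperone of the pre-B-cell receptor that is expressed through the early B lineage, was detected in 95.1% and 97.1% of cells, and in 82.8% and 77.8% after each cell was thinned to 1000 UMIs. At the same depth it was found in 38.3% and 13.7% of mature B cells and in 0 of 2801 and 0 of 115 cartilage barcodes, which have Col2a1 and no Cd79. Mature B cells are barcodes with the same Cd79a, Cd79b, Cd3 and Col2a1 limits, none of the 4 precursor genes and at least 1 UMI of Ms4a1 or Ighd (116 in library MGJ, 558 in library MGJ2). Ms4a1, the CD20 antigen of mature B cells, had 8 UMIs in 4 of 102 cells and 90 UMIs in 28 of 243 cells. The mature B list (Ms4a1, Ighd, Fcer2a, Cr2, Cd22 and Fcmr) summed to 76.0 and 181 CPM, against 992 and 1685 CPM in mature B cells, where Ms4a1 and Ighd were used to choose the cells and so set part of the higher level in advance. The plasma cell gene Jchain had 0 and 2 UMIs and Tnfrsf17 had 0, while the plasma cell list, which also holds Xbp1 and Mzb1, summed to 650 and 491 CPM against 349 and 1188 CPM in mature B cells.

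RNA of other lineages was present at low levels in most of the cells. The neutrophil list (S100a8, S100a9, Ltf, Camp, Ngp, Retnlg and Csf3r) summed to 8015 CPM in the first library and 6316 CPM in the second, against 42578 and 8667 CPM in mature B cells. Of the S100a8 and S100a9 UMIs, 81.7% and 72.7% sat in 3 cells of each library, and the median cell held 2 UMIs. The fibroblast list was at 2066 and 21.8 CPM, the chondrocyte list at 811 and 103 CPM and the macrophage list at 1190 and 400 CPM, with 97.8% of the Apoe UMIs of library MGJ in 3 cells. The T cell list held 2 and 19 UMIs in all cells, with Cd8a and Cd4 at 0 in both libraries. This list includes Cd3d and Cd3e, which the rule set to 0, and the chondrocyte list includes Col2a1, which the rule limits. Part of these low levels was thus set in advance. NK cell, dendritic, myeloid progenitor, erythroid, endothelial, osteoblast, osteoclast and mast cell lists were each between 0 and 91.1 CPM.

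**Figure D1:**
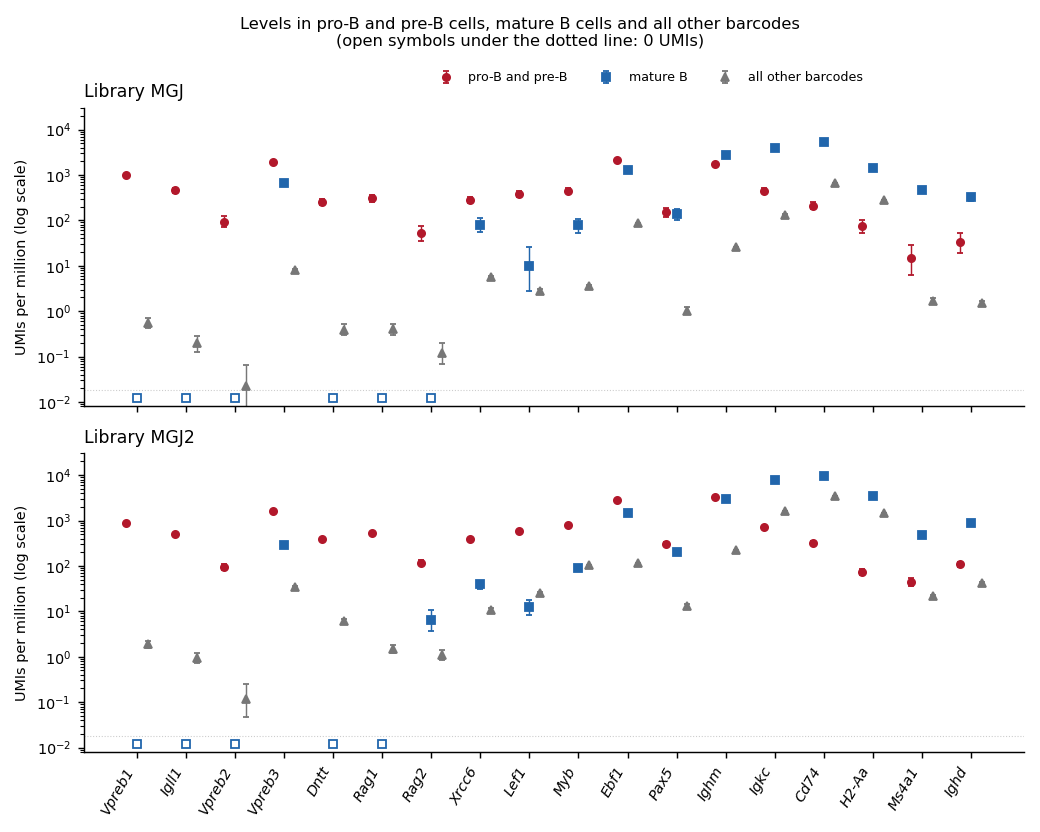
Levels of 18 genes (CPM, log scale) in pro-B and pre-B cells (red circles), mature B cells (blue squares) and all other barcodes (grey triangles), 1 panel per library, with exact 95% counting intervals; open symbols under the dotted line stand for 0 UMIs. Vpreb1, Igll1, Dntt, Rag1, Ms4a1 and Ighd chose the groups, and the Vpreb2 transcript is nearly identical to that of Vpreb1. Among the others, Vpreb3, Xrcc6, Lef1 and Myb sit higher in pro-B and pre-B cells and Igkc, Cd74 and H2-Aa sit lower.

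Against mature B cells of the same library, pro-B and pre-B cells held more RNA of the precursor genes Vpreb3, Lef1 and Myb and of replication genes. They held less RNA of light chain and MHC class II genes. Genes with at least 50 UMIs over both groups were compared, and a ratio of at least 2 was counted. In library MGJ, 263 of 2789 genes (9.43%) were higher in the precursors and 219 (7.85%) lower. In library MGJ2, 1061 of 7827 genes (13.6%) were higher and 791 (10.1%) lower. Of the 2722 genes compared in both libraries, 187 were higher in both, which is 73.3% of those higher in library MGJ and 52.4% of those higher in library MGJ2, and 109 were lower in both. Without the tenth of precursors richest in RNA of other lineages, 310 genes were higher and 301 lower in library MGJ and 1108 and 916 in the other library. Without the tenth of mature B cells richest in such RNA, a setting added after the data had been seen, the counts were 245 and 162 and then 1092 and 559. The median log2 ratio of all compared genes was 0.11 and 0.10.

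The surrogate light chain and receptor signalling genes were split. Of 10 genes of this list compared, 3 were higher and 1 lower in either library. Vpreb2, the second surrogate light chain V-like gene, was at 94.1 CPM in precursors and 0 in mature B cells of library MGJ. In library MGJ2 it was at 94.6 and 0 CPM. The levels were at least 12.6 and 78.2 times higher when 3 counts are allowed to the mature cells. The rule may have set part of this difference, since Vpreb1 chose both groups and its transcript is nearly identical to that of Vpreb2. Vpreb3 was at 1937 against 660 CPM, a ratio of 2.93 (2.56 to 3.37), and at 1639 against 287 CPM, a ratio of 5.70 (5.26 to 6.19). Blnk, the adaptor that links the receptor to its downstream enzymes, had ratios of 2.36 (1.70 to 3.32) and 2.61 (2.34 to 2.92). The receptor-proximal kinase Lyn was the gene below the 2-fold line, at ratios of 0.363 and 0.479. Syk, a kinase that acts after it, was near parity at 0.814 and 0.993.

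Among the genes of V(D)J recombination and end joining, 2 of 3 compared were higher in the first library and 5 of 9 in the second, with none lower. Rag2, the partner of Rag1 that was not part of the rule, had 29 UMIs in 102 precursors of library MGJ and 0 in mature cells. In library MGJ2, Rag2 was at 118 CPM against 6.45 CPM, a ratio of 18.3 (11.02 to 32.5). Xrcc6, the Ku70 subunit that holds broken DNA ends, was at 284 against 79.8 CPM (ratio 3.56, 2.42 to 5.39) and at 391 against 39.1 CPM (ratio 9.99, 8.08 to 12.5). Its partner Ku80 (Xrcc5) was at only 7.24 and 11.4 CPM in the precursors and the kinase Prkdc at 7.24 and 13.9 CPM. Hmgb1, a DNA-bending cofactor of the recombinase, was 2.88 and 3.80 times higher, and its relative Hmgb2 1.78 and 3.67 times higher. Lig4, the ligase of this pathway, was 3.28 times higher in library MGJ2.

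Of the B lineage transcription factors, 3 of 20 compared were higher and 3 lower in library MGJ, and 8 of 23 were higher and 2 lower in library MGJ2. Lef1, a Wnt pathway factor of early lymphocytes, was at 382 CPM in the precursors against 9.97 CPM, a ratio of 38.3 (14.7 to 142), and at 574 against 12.5 CPM, a ratio of 45.9 (32.2 to 67.9). Myb, which maintains lymphoid progenitors, was 5.86 (4.02 to 8.81) and 8.94 (7.76 to 10.4) times higher, and Sox4 was 2.66 (1.94 to 3.71) and 7.26 (6.10 to 8.68) times higher. Lef1, Myb and Sox4 were the 3 factors above the 2-fold line in library MGJ. Ebf1, which commits cells to the B lineage, was 1.68 and 1.90 times higher and stayed under the 2-fold line, and Pax5, its partner in commitment, was at 1.11 and 1.56. Tcf3, the E2A gene named with the promoters, had ratios of 1.87 and 3.90. Klf2, a quiescence and homing factor of mature lymphocytes, was lower at 123 against 416 CPM (ratio 0.296) and 123 against 362 CPM (ratio 0.340).

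Receptors that tie precursors to the marrow niche were also compared. Il7r, the receptor for the cytokine that drives precursor growth, was at 174 against 77.3 CPM (ratio 2.25, 1.49 to 3.49) and at 203 against 59.7 CPM (ratio 3.40, 2.81 to 4.13). Socs2, a feedback gene of cytokine signalling, was 2.62 and 24.3 times higher. Kit, the stem cell factor receptor, was 7.30 times higher in library MGJ2 and had 11 UMIs in the precursors of library MGJ. Cxcr4, the receptor that retains cells in marrow, was lower without reaching 2-fold, at 0.607 and 0.617. Over the list, 2 of 7 and 3 of 12 genes were higher, and 0 and 2 lower. Of the stage antigens, 1 of 4 and 4 of 13 were higher and 1 and 6 lower. Cd24a, heat-stable antigen, was at 1048 against 277 CPM and at 1459 against 317 CPM, and Bst1 (BP-3) was 6.58 and Spn (CD43) 3.74 times higher in library MGJ2.

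Immunoglobulin and antigen presentation genes were lower. Of the constant region genes compared, 4 of 5 and 5 of 8 were lower and none higher. Igkc, the kappa constant region, was at 451 against 3890 CPM (ratio 0.116, 0.101 to 0.133) and at 737 against 7663 CPM (ratio 0.0962, 0.0912 to 0.101). In library MGJ2, 1 mature B cell held 6360 of the 19012 Igkc UMIs of its group. The size of that ratio thus leans on 1 cell, which its counting interval does not cover. Ighm, the mu heavy chain, differed by less, at 1736 against 2774 CPM (ratio 0.626) and at 3229 against 3043 CPM (ratio 1.06). Of the MHC class II and mature B genes, 11 of 14 and 14 of 18 were lower and none higher. Cd74, the invariant chain of MHC class II, was at 210 against 5298 CPM (ratio 0.0396) and at 326 against 9602 CPM (ratio 0.0340). H2-Aa had ratios of 0.0520 and 0.0215, H2-Eb1 of 0.0350 and 0.0195, and H2-Ab1 of 0.113 and 0.0444. Cd74 and these 3 class II chains were among the 10 genes furthest below the line in both libraries. Iglc1, a lambda constant region, was at 0.498 and 0.631, but at 1.38 in library MGJ when every cell was weighted equally.

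Replication genes were the group with the most members above the line. Of the S phase genes, 11 of 12 and 14 of 16 were higher, with median log2 ratios of 1.49 and 2.22, and of the G2 and M phase genes 8 of 11 and 17 of 18 were higher. Tyms, which makes thymidylate, was 3.37 and 9.26 times higher, and Cdk1, the mitotic kinase, 3.45 and 6.39 times higher. The groups differed in their share of dividing cells. In cells without Mki67 or Top2a UMIs, Mcm2 had ratios of 0.528 (0.0521 to 2.95) and 0.676 (0.314 to 1.33). Pcna had a ratio of 0.839 (0.675 to 1.04) in library MGJ2. All of these intervals held 1, so the counts were too few to give a direction. Of the genes of cycle exit, 1 of 7 and 3 of 10 were higher and 2 and 1 lower. Ccnd3, the cyclin of dividing pre-B cells, was 2.01 and 2.17 times higher, Ccnd2 was at 0.314 and 0.506, and Btg1, an antiproliferative gene, at 0.484 and 0.505. Of the apoptosis genes, 0 of 4 and 0 of 9 were higher, and Bcl2 was at 0.201 in library MGJ2.

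Further genes above the line in both libraries were Nrgn (ratios 17.4 and 14.7), Bfsp2 (21.6 and 11.6), Adgrg1 (7.68 and 13.7), Ldlrad4 (7.26 and 9.24), Lgals9 (7.67 and 7.14), Ptgr1 (7.02 and 11.5), the peroxide-degrading enzyme Cat (7.75 and 6.05), the replication checkpoint gene Clspn (6.83 and 6.03), the histone chaperone Asf1b (6.68 and 5.69, and 0 in non-dividing cells of library MGJ2) and 3 genes with clone names, 1700027J07Rik, Gm37065 and 2900026A02Rik. The Asf1b ratio of 0 had an interval of 0 to 1.18. Nrgn, neurogranin, is best known from neurons, and Bfsp2 from the eye lens. Bfsp2 was at 215 CPM in 36 of 102 cells and at 102 CPM in 50 of 243 cells, and at 0.578 and 1.26 CPM in all other barcodes. Below the line were also Ly6a, Cd83, Fcmr and the myeloid genes Prtn3 (0.00931 and 0.0398) and Ly6c2 (0.0196 and 0.0863). The myeloid progenitor list, which holds Prtn3, was at 354 and 364 CPM in mature B cells and at 5.43 and 29.7 CPM in the precursors, and without the tenth of mature cells richest in RNA of other lineages Prtn3 and Ly6c2 stood at 1.02 and 1.30 in library MGJ2.

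**Figure D2:**
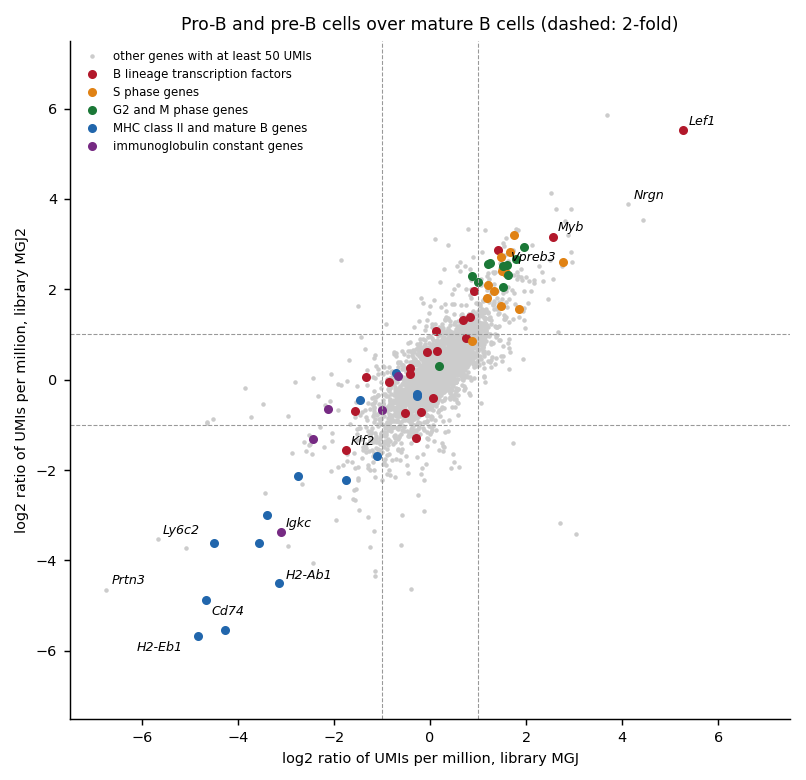
Log2 ratio of CPM, pro-B and pre-B cells over mature B cells, in library MGJ (horizontal) and library MGJ2 (vertical), for genes compared in both libraries with UMIs in all groups; colours mark 5 gene lists and dashed lines 2-fold. Lef1 and Myb sit at the upper right with the replication genes, and Cd74, H2-Eb1, H2-Ab1 and Igkc sit at the lower left.

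Against all other barcodes, 3836 of 14756 genes (26%) of library MGJ and 3309 of 13111 genes (25.2%) of library MGJ2 were at least 2-fold higher in pro-B and pre-B cells. Vpreb2, with the limit given above, and Vpreb3 (ratios 242 and 47.1) stood out in both libraries. So did, among others, Bfsp2 (373 and 81.3), Smtnl2 (68.1 and 132), Cplx2 (62.1 and 67.2), Cecr2 (143 and 34.9) and Xrcc6 (51.3 and 35.7). Xrcc6 is the member of this set with a known part in V(D)J joining. Piezo1, the mechanosensitive channel that the study was built on, was at 18.1 CPM (8.68 to 33.3) in 7 of 102 cells and at 14.9 CPM (10.0 to 21.2) in 26 of 243 cells. In all other barcodes Piezo1 was at 90.2 and 55.0 CPM. After thinning to 1000 UMIs, 2.02% and 0.412% of the precursors held a Piezo1 UMI, against 10.1% and 16.5% of the cartilage barcodes.

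The cells were then divided into 3 groups by the rule genes they held, a split chosen after the values had been seen. The Dntt group held at least 1 UMI of Dntt, 38 cells of library MGJ and 81 of library MGJ2. The second group held Vpreb1 or Igll1 without Dntt, 28 and 33 cells, and the third held Rag1 only, 36 and 129 cells. The groups differed in depth, with medians of 4194.5, 6272.5 and 1421.5 UMIs per cell in library MGJ. The medians of library MGJ2 were 7795, 7555 and 3266 UMIs. A missing UMI in a shallow cell does not show that a gene is silent, so shares below are given at 1000 UMIs per cell as well. Thinning did not change the groups, which were set at full depth. A shallow cell may thus be in the Rag1-only group because its Dntt, Vpreb1 or Igll1 RNA was missed.

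Division differed between the groups. A cell with at least 2 UMIs of Mki67 and Top2a together was called dividing, and 27 of 102 cells (26.5%, 18.2 to 36.1) and 62 of 243 cells (25.5%, 20.2 to 31.5) were. Among mature B cells 9.48% and 3.76% were dividing, and among cartilage barcodes 5.39% and 3.48%. At 1000 UMIs per cell the shares were 13.1% and 13.2% of the precursors, 4.35% and 2.17% of mature B cells and 0.643% and 0% of cartilage barcodes. In library MGJ, 13 of 38 Dntt cells, 14 of 28 surrogate light chain cells and 0 of 36 Rag1-only cells divided. In library MGJ2, 32 of 81, 20 of 33 and 10 of 129 did. At equal depth the order was the same in library MGJ2, at 18.5% of Dntt cells, 24.2% of surrogate light chain cells and 5.43% of Rag1-only cells, the first 2 with overlapping counting intervals, while in library MGJ the first 2 groups were alike at 10.5% and 10.7% and 0 of 33 Rag1-only cells divided. Dividing cells were the deeper ones, with medians of 10155 and 17117 UMIs against 2006 and 3473 in non-dividing cells, which hold no UMI of either gene.

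Dividing precursors held more RNA of the replication genes and less of the immunoglobulin genes than non-dividing ones. The compared cells also differed in their make-up by rule genes. Rag1-only cells were 0 of 27 dividing and 35 of 73 non-dividing cells in library MGJ. In library MGJ2 they were 10 of 62 and 118 of 173. The ratios pool all groups, so how far division or group sets them was not tested. In library MGJ, 182 of 1445 genes (12.6%) were at least 2-fold higher and 190 (13.1%) lower, and in library MGJ2 616 of 5463 (11.3%) were higher and 817 (15%) lower, or 779 and 589 when ratios were divided by their median over all genes. Of the 1432 genes compared in both libraries, 139 were higher and 115 lower in both. All 8 of 8 and 15 of 15 S phase genes compared were higher, and all 7 of 7 and 16 of 16 G2 and M phase genes. Mki67 and Top2a, which chose the cells, are left out of these counts. That does not make the counts independent of the choice, since genes that vary with these 2 were likely to be higher in advance. The UMI minimum is also a sum over both groups, which such genes could reach through dividing cells alone. In library MGJ, Nusap1 had 63 against 0 UMIs and Ccna2 55 against 0. Only 8 of 16 S phase and 7 of 18 G2 and M phase genes were compared there. Cenpf, a kinetochore gene, had ratios of 32.1 and 54.9, the ribonucleotide reductase subunit Rrm2 of 24.8 and 56.7, the linker histone gene Hist1h1b of 26.7 and 47.6, and the ubiquitin-conjugating enzyme Ube2c of 22.1 and 63.6. Hmgb2 was 3.97 and 10.1 times higher and Hmgb1 3.61 and 4.54 times higher.

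The immunoglobulin constant genes compared were all lower in dividing cells, 4 of 4 and 6 of 6. Igkc had ratios of 0.174 and 0.161, and Iglc1, a lambda constant region, had 0 UMIs in the dividing cells of library MGJ and 1 UMI in those of library MGJ2. Xrcc6 was lower at 0.380 and 0.254. The chromatin-bound recombination cofactors Hmgb1 and Hmgb2 and the end-joining gene Xrcc6, of 1 list, were thus on opposite sides of the line. Btg1 was at 0.421 and 0.206 and its relative Btg2 at 0.204 and 0.245. Il7r stayed near parity at 0.833 and 1.11. Cd24a was higher in dividing cells without reaching 2-fold, at 1.96 and 1.90. Ly6d, an antigen of B-committed lymphoid progenitors, was at 0.0225 and 0.113. None of 16 and 23 transcription factors was higher, and 3 and 8 were lower. In surrogate light chain cells alone, 12 of 14 dividing and 7 of 13 non-dividing cells of library MGJ held kappa RNA without lambda. For library MGJ2 these were 18 of 20 and 8 of 13. Dividing cells of this group were deeper, at medians of 10563 against 1784 UMIs and 10444 against 3515 UMIs.

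**Figure D3:**
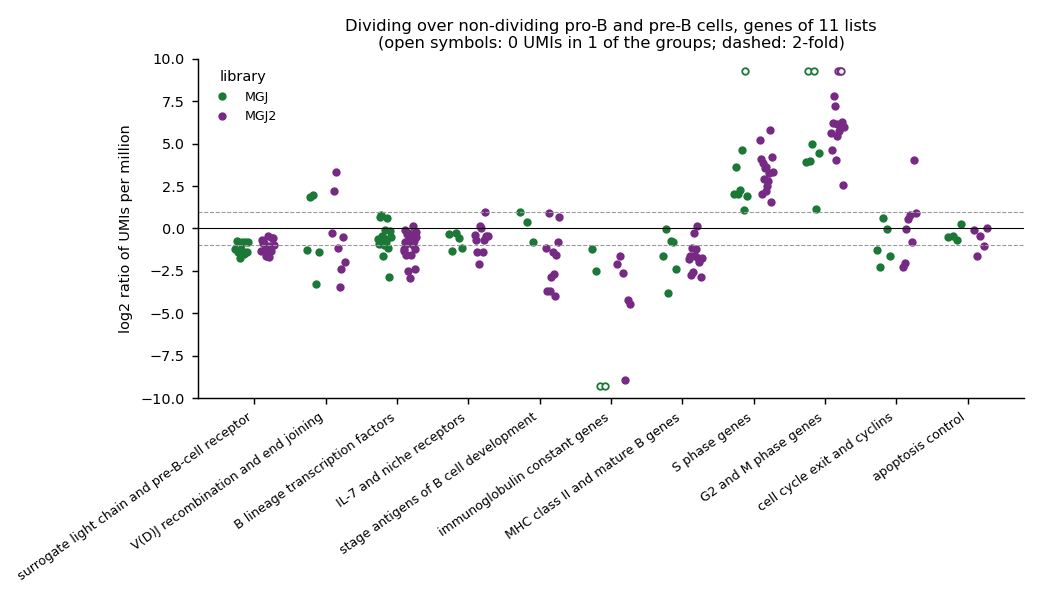
Log2 ratio of CPM, dividing over non-dividing pro-B and pre-B cells, for the compared genes of 11 lists (1 point per gene; green, library MGJ; purple, library MGJ2); open symbols at the edges mark genes with 0 UMIs in 1 of the 2 groups and dashed lines 2-fold. S phase and G2 and M phase genes lie above the upper line, immunoglobulin constant genes lie below the lower one, and Hmgb1 and Hmgb2 stand above it in the recombination list.

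Rag1-only cells differed from Dntt cells most in immunoglobulin genes. Of the genes with 50 UMIs over both groups, 68 of 777 (8.75%) were at least 2-fold higher in Rag1-only cells and 123 (15.8%) lower in library MGJ, and 622 of 4900 (12.7%) higher and 591 (12.1%) lower in library MGJ2. Of 775 genes compared in both, 44 were higher and 63 lower in both. Because Dntt cells divided more often, the same was computed in non-dividing cells, where 35 of 394 genes (8.88%) were higher and 44 (11.2%) lower in library MGJ and 311 of 2558 (12.2%) higher and 175 (6.84%) lower in library MGJ2. The immunoglobulin constant genes were higher in all 4 of 4 and 6 of 6 cases, in all cells and in non-dividing cells. Rag1-only and Dntt cells of library MGJ held 61482 and 220376 UMIs. Genes could thus reach 50 UMIs mainly through Dntt cells, which makes lower calls easier than higher ones. The counts also include RNA of other lineages. In non-dividing cells of library MGJ, the neutrophil gene S100a8 was lower (0.340) and Lcn2 higher (8.04).

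Ighm, the mu heavy chain, was at 1085 CPM in non-dividing Dntt cells and 6300 CPM in non-dividing Rag1-only cells of library MGJ, a ratio of 5.80 (4.66 to 7.29), with surrogate light chain cells between them at 2041 CPM. In library MGJ2 the 3 levels of Ighm were 1746, 4169 and 8145 CPM, and the ratio of the last to the first was 4.67 (4.23 to 5.16). Igkc stood at 93.9, 859 and 2423 CPM in the non-dividing cells of the 3 groups of library MGJ, and library MGJ2 gave 170, 1678 and 2291 CPM. The light chain RNA thus stood in the same order of groups in both libraries, and the Rag1-only level of Igkc was 25.8 (13.2 to 57.6) and 13.5 (9.99 to 18.7) times that of Dntt cells.

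Lef1 ran the other way. It was at 856 CPM in non-dividing Dntt cells, 859 CPM in surrogate light chain cells and 17.3 CPM in Rag1-only cells of library MGJ. The corresponding levels of library MGJ2 were 1561, 729 and 72.7 CPM. The Rag1-only level was 0.0202 (0.000506 to 0.116) and 0.0466 (0.0314 to 0.0668) times that of Dntt cells. At 1000 UMIs per cell, Lef1 was found in 55.3%, 32.1% and 3.03% of cells of the 3 groups and in 64.2%, 39.4% and 8.53%, against 0.286% and 0% of cartilage barcodes. Erg, an ETS factor of early progenitors, was at 146, 161 and 0 CPM and at 231, 84.7 and 15.9 CPM. Tcf4 (E2-2), another E-box factor, had ratios of 0.304 (0.144 to 0.584) and 0.197 (0.153 to 0.250), and Hhex, a homeobox factor of lymphoid progenitors, was at 344 against 34.6 CPM and 324 against 13.6 CPM.

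Genes of later pre-B cells appeared in the Rag1-only group. Il2ra (CD25), the surface antigen used to define small pre-B cells, had no UMI in any of the 38 and 81 Dntt cells, and was at 208 CPM in 12 of 35 non-dividing Rag1-only cells and at 264 CPM in 56 of 118. At 1000 UMIs per cell it was found in 21.2% and 22.5% of Rag1-only cells, against 0.0357% and 0% of cartilage barcodes. Ikzf3 (Aiolos), a factor induced by pre-B-cell receptor signals, stood at 0, 0 and 277 CPM in the non-dividing cells of the 3 groups of library MGJ, and library MGJ2 gave 15.4, 254 and 261 CPM. Cd2 was at 10.4, 53.7 and 225 CPM and at 7.71, 84.7 and 191 CPM. Bach2, a repressor required for pre-B cell development, was 3.23 (1.84 to 5.85) and 3.50 (2.85 to 4.32) times higher than in Dntt cells, and Btg1 3.12 and 4.06 times higher. Klf2 was at 73.1 against 537 CPM and at 30.8 against 416 CPM, and its ratio in library MGJ2 was 13.5. Polm, a polymerase that acts at light chain joints, was at 69.2 and 120 CPM in non-dividing Rag1-only cells and at 0 in Dntt cells of both libraries. In library MGJ the Polm level rested on few UMIs, just above the 3 counts that a count of 0 allows. Part of the MHC class II and mature B list was higher in Rag1-only than in Dntt cells too, 1 of 2 and 8 of 13 genes compared. In non-dividing cells 0 of 2 and 6 of 12 were higher, and none was lower in either setting. Whether some Rag1-only cells had passed beyond the pre-B stage was not tested.

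Other genes higher in Rag1-only cells in both libraries were Ly6d (42.8 and 27.9), Dnajc7, a cochaperone (10.2 and 10.7), Rhoh, a haematopoietic GTPase that inhibits signalling (9.50 and 6.26), and Cd52 (4.66 and 7.36). Among genes lower in Rag1-only cells were Bfsp2 (0.138 and 0.0647), Ptpn18 (0.0805 and 0.204) and Crip1 (0.0877 and 0.210). Cd52 and Crip1 kept these sides in non-dividing cells, at 4.46 and 6.55 for Cd52 and 0.0940 and 0.173 for Crip1. Vpreb3, Xrcc6 and Ebf1 stayed within 2-fold between the non-dividing cells of both groups. The ratio of Rag2 did too, but in library MGJ it rested on 5 against 9 UMIs (0.921, 0.243 to 3.06), too few to show it. Vpreb3 was at 3235 against 2181 CPM and at 2728 against 1943 CPM in non-dividing Dntt and Rag1-only cells, Xrcc6 had ratios of 1.30 and 0.885 and Ebf1 of 0.860 and 0.802. Rag2 was at 93.9, 53.7 and 86.5 CPM and at 181, 119 and 120 CPM in the 3 groups, with overlapping intervals in both libraries.

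The surrogate light chain group without Dntt held a feature of its own. In its dividing cells Nrgn was at 247 CPM (181 to 328), in 9 of 14 cells of library MGJ, and at 287 CPM (233 to 349), in 12 of 20 cells of library MGJ2. In no other group did Nrgn pass 18.2 CPM, and it was found in 1 of 13 and 4 of 32 dividing Dntt cells. The same cells held the highest Cd24a of the 5 groups compared, at 1728 CPM (1547 to 1926) in the first library and 3052 CPM (2872 to 3241) in the second. Erg was at 5.25 and 5.74 CPM in them, against 161 and 84.7 CPM in the non-dividing cells of the group.

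**Figure D4:**
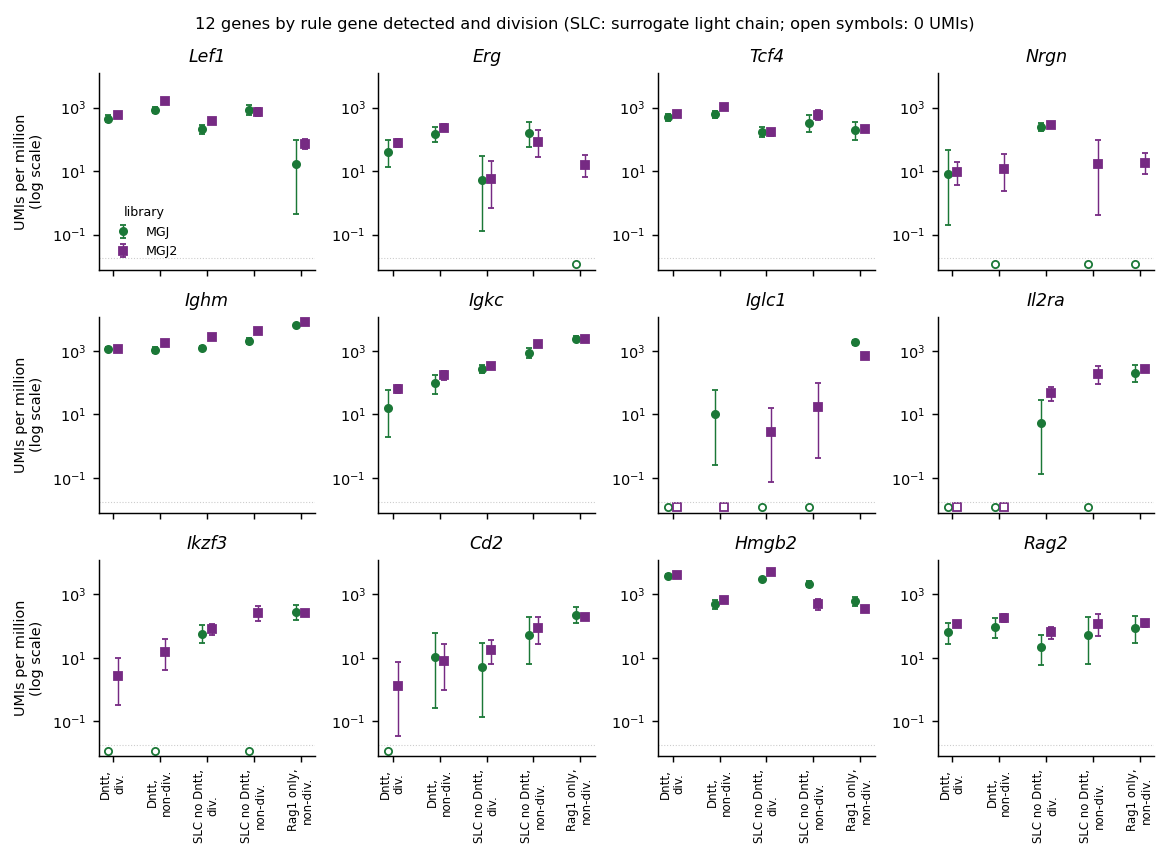
Levels of 12 genes (CPM, log scale, exact 95% counting intervals) in dividing and non-dividing pro-B and pre-B cells grouped by the rule genes detected (Dntt; surrogate light chain, SLC, without Dntt; Rag1 only), with library MGJ in green circles and library MGJ2 in purple squares; open symbols stand for 0 UMIs. Lef1 and Erg are lowest or near lowest in Rag1-only cells, Ighm, Igkc, Iglc1 and Il2ra are highest there, and Nrgn is raised in dividing SLC cells.

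Light chain RNA was also counted cell by cell, a count added after the values had been seen. In library MGJ, 32 of 38 Dntt cells held no UMI of Igkc, Iglc1, Iglc2 or Iglc3, 5 held kappa only and 1 lambda only. Of 28 surrogate light chain cells, 20 held kappa only, 7 neither and 1 both. Of 36 Rag1-only cells, 5 held kappa only, 9 lambda only, 15 both and 7 neither. In library MGJ2, 48 of 81 Dntt cells held neither chain and 29 kappa only, 26 of 33 surrogate light chain cells held kappa only, and 129 Rag1-only cells were divided into 51 with kappa only, 24 with lambda only, 51 with both and 3 with neither. Lambda RNA was thus mostly found in Rag1-only cells, and most surrogate light chain cells held kappa RNA without lambda. The 10 dividing Rag1-only cells of library MGJ2 all held kappa only, whereas 24 of the 118 non-dividing ones held lambda only and 50 both. In surrogate light chain cells of library MGJ2, 83.3% of the 66 lambda UMIs came from 2 cells.

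Free immunoglobulin RNA was measured in cartilage barcodes, which should hold none of their own. Igkc was found in 4.18% and 41.7% of them at median depths of 21232 and 29235 UMIs, and in 0.214% and 0.870% once thinned to 1000 UMIs. At that depth Igkc was found in 2.63%, 28.6% and 51.5% of Dntt, surrogate light chain and Rag1-only cells of library MGJ. For library MGJ2 these shares were 13.6%, 48.5% and 69.0%. Iglc1 was found in 0 of the thinned cartilage barcodes and in 45.5% and 25.6% of Rag1-only cells. Cartilage barcodes were deeper than the precursors. If free RNA adds a like number of UMIs to each droplet, thinning lowers it more in them. Thinned cartilage shares, here and for Vpreb3, Lef1 and Il2ra, thus set no bound on free RNA in precursors. Unthinned, 29 of 81 Dntt cells of library MGJ2 held kappa only and 3 both chains, beside 41.7% of cartilage barcodes. How much of that kappa RNA was free was not tested. The highest Igkc count in 1 precursor was 27 and 53 UMIs, while 1 mature B cell of library MGJ2 held 6360. A constant region UMI does not say whether the gene was rearranged. V segments could not fill that gap, since 183 Ighv genes together had 2 and 13 UMIs in the precursors and 160 Igkv genes had 6 and 23.

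**Figure D5:**
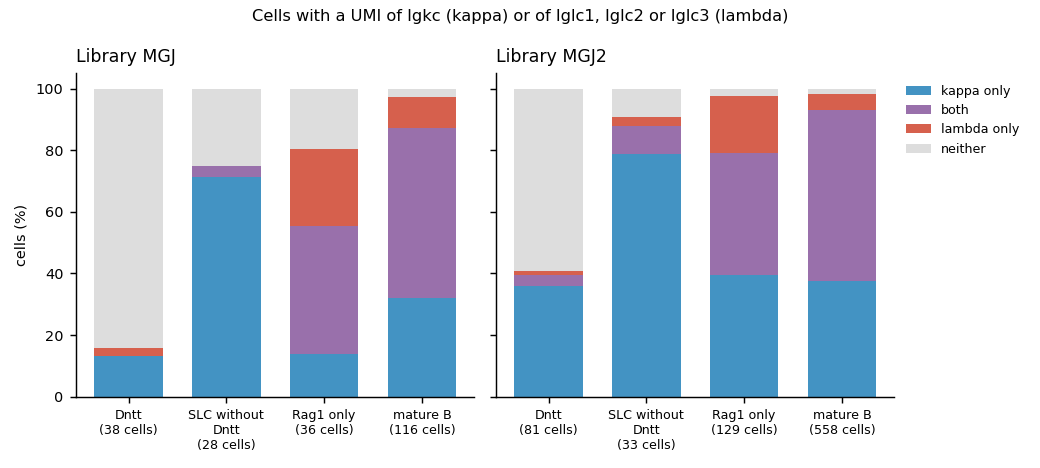
Share of cells (%) with a UMI of Igkc only (kappa only), of Iglc1, Iglc2 or Iglc3 only (lambda only), of both or of neither, in the 3 groups of pro-B and pre-B cells and in mature B cells, 1 panel per library, with cell numbers under the bars; SLC stands for surrogate light chain. The share with neither falls from 32 of 38 Dntt cells to 7 of 36 Rag1-only cells in library MGJ and from 48 of 81 to 3 of 129 in library MGJ2.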

How the data were processed

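Callus cells of the 2 libraries were profiled with the Chromium Single-Cell 3′ kit. The values used are the UMI counts per gene and barcode that the authors deposited, raw and not normalized, 1 filtered matrix per library. The file headers name Cell Ranger 4.0.0, and the submitters' processing notes name GRCm38 and Seurat. No cell annotation was used. Gene positions came from GENCODE M21 and promoter windows from RefSeq, both on GRCm38.

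From the counts, barcodes with fewer than 200 genes or over 20% mitochondrial UMIs were removed and each library was gated separately by the rule given at the start. UMIs were summed per group and scaled to CPM. Levels carry exact Poisson 95% intervals, shares exact Clopper-Pearson intervals and ratios exact conditional binomial intervals. With 1 library per condition at most, no test was run. A gene was compared with at least 50 UMIs over both groups and counted at a ratio of at least 2. A count of 0 allows 3 counts. Shares were also computed after thinning each cell to 2000 or 1000 UMIs. Doublets were called with Scrublet in scanpy 1.11.5 (0.8% per 1000 barcodes) and kept. The ratio code was tested on simulated data.

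Named genes were the rule genes, markers of 16 cell types, the genes of 11 lists, and those with the largest ratio, in the library where it was smaller, in both libraries (15 higher and 10 lower than mature B cells, 8 each way for division and for the Rag1-only groups, 10 against all other barcodes). The cells, markers and lists were chosen with earlier results of these data known. The split into Dntt, surrogate light chain and Rag1-only cells, the comparisons between them, and the light chain counts were chosen after their values had been seen. Alternatives changed the filters, gates, doublets, depth, minimum UMIs, weighting and scaling. Python 3.11.15, numpy 2.4.6, scipy 1.17.1, pandas 2.3.3 and matplotlib 3.10.9 were used.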

Additional observations from a re-analysis of the deposited data

Results flagged for a closer look

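Barcodes outside the gates also held precursor genes. In library MGJ, 24 barcodes had at least 2 UMIs of Vpreb1, Igll1, Dntt and Rag1 but failed another gate, above the 3 that a count of 0 allows. Of these, 17 had fewer than 2 UMIs of Cd79a and Cd79b, 7 were over the Col2a1 limit and 1 held Cd3d or Cd3e. In library MGJ2 there were 54, of which 46 were under the Cd79 limit, 10 held Cd3d or Cd3e and 0 were over the Col2a1 limit. Dntt was found in 14 of the 24 and 48 of the 54, Siglech and Ccr9, both genes of plasmacytoid dendritic cells, in 10 and 10 and in 30 and 35, and Flt3 in 9 and 38. Vpreb3 was found in 10 and 10. Their median depths were 9096.5 and 9711 UMIs. They are in neither the pro-B and pre-B cells nor the mature B cells, and are counted among all other barcodes.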

How the results depend on the processing

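Over 134 repeats of the summary values under an alternative, 115 stayed the same, 19 moved and 0 reversed. The comparisons between Dntt, surrogate light chain and Rag1-only cells and the light chain counts were not part of these repeats. In library MGJ, at least 3 UMIs of the rule genes gave a share of 0.572% of barcodes and 49.4% with Dntt, and thinning to 1000 UMIs gave 13.1% dividing and 18.2% with Dntt. A minimum of 20 UMIs per gene gave 631 genes higher and 581 lower than in mature B cells and 476 and 624 in dividing cells, because more genes were compared. Mature B cells without the Ms4a1 or Ighd requirement gave 457 lower genes. In library MGJ2, at least 3 rule UMIs gave 2.65%, thinning to 2000 UMIs gave 20.0% dividing and 25.8% with Dntt, thinning to 1000 UMIs gave 13.2% and 19.8%, and the 20 UMI minimum gave 987 and 1372 genes in dividing cells. Scaling by the median ratio gave 214 higher and 264 lower against mature B cells for library MGJ, 920 and 905 for library MGJ2, and 779 and 589 for dividing cells of library MGJ2. In non-dividing cells only, a setting added after the data had been seen, 121 genes were higher and 129 lower for library MGJ, with 623 higher for library MGJ2.

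Of 5360 repeats for single genes, 4745 stayed the same, 596 moved and 19 reversed, all against mature B cells. With every cell weighted equally Iglc1 stood at 1.38 in library MGJ. In non-dividing cells, library MGJ gave Iglc1 1.30, Mcm2 0.528, Mcm5 and Mcm7 0.792 and Nusap1 0, and library MGJ2 gave Igha 1.02, Pcna 0.839, Mcm2 0.676, Mcm4 0.470, Cdc20 0.881, Cenpe, Nusap1, Ccne1 and Asf1b 0 and Prtn3 1.68. Of these non-dividing ratios, only Cenpe (0 to 0.951) had an interval off 1. Without the tenth of mature B cells richest in RNA of other lineages, also added after the data had been seen, library MGJ2 gave Socs3 1.38, Prtn3 1.02 and Ly6c2 1.30. Beyond the fewer genes or cells that each setting leaves, the cause was not tested. No paired analysis was possible because each library is 1 sample without a group, so that no replicate could be left out either. The depth, a median of 1421.5 UMIs in Rag1-only cells of library MGJ, limits what absent UMIs show.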
